A study of Komagataella pastoris with 12 samples.

Results

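The genes described here encode the cytosolic chaperones HSP70 and HSP90 of the methylotrophic yeast Komagataella phaffii, which the labels call Komagataella pastoris. Members were taken by locus tag, PAS_chr3_0230, PAS_chr4_0552 and PAS_chr1-4_0130, and are 3 of the 5080 rows of the expression table. They were followed in 12 RNA-seq libraries, 3 biological replicates each of G14_37, G14_30, Parent_37 and Parent_30, where the number gives the growth temperature of 37 or 30 °C. The parent is a recombinant strain derived from GS115 that expresses a lipase. G14 is 1 isolate that descends from it through plasma mutagenesis and stepwise adaptation to high temperature, and it still carries the lipase gene, so all 4 groups share that background. Both strains were grown in rich YPD medium and collected in logarithmic phase. How long the cultures had been at 37 °C is not given in the sources used here.

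HSP70 chaperones bind short hydrophobic stretches of unfolded proteins and release them in a cycle driven by ATP. J-domain proteins (HSP40) bring them their clients and stimulate the ATPase, and nucleotide exchange factors reset it. HSP90 takes over partly folded clients, such as kinases and transcription factors, with the help of its own co-chaperones. In baker's yeast both chaperone classes are abundant at normal temperature and are among the classical targets of the heat shock factor Hsf1, which free HSP70 holds back.

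PAS_chr3_0230 lies on the plus strand of chromosome 3 at 463134 to 465107 and is described in the deposited table as an ATPase that acts in protein folding and in the stress response. PAS_chr4_0552 lies on the plus strand of chromosome 4 at 1081350 to 1083287, and its description joins protein folding with nuclear transport directed by localization signals. Both carry the HSP70 domain in the table's domain column. PAS_chr1-4_0130 lies on the plus strand of chromosome 1 at 1644458 to 1646578 and is described as heat shock protein Hsp90, with the ATPase domain HATPase_c. The coding lengths are 1974, 1938 and 2121 bases, the same as the distances between the listed ends. The genome build is the one of the PICHIAGENOME database, and its version is not given in the sources used here. Whether reads that fit both HSP70 genes were dropped, split or counted in both is not given in the sources used here, and was not tested.

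Values are FPKM, fragments scaled by coding length and library size, so that genes can be compared with each other. The libraries held 13428637 to 22047040 fragments on the table's genes (median 15412798). In G14_37, replicate 1 stood apart from its group, with a Pearson's r across genes of 0.880 and 0.863 with replicates 2 and 3. Replicates 2 and 3 had 0.959 with each other, and the replicates of the other groups 0.977 to 0.996. The column sums of FPKM differed between libraries, from 832036 in G14_37 replicate 1 to 1187966 in Parent_30 replicate 1. Log2 fold changes of the members in comparisons with G14_37 are given without replicate 1 as well. Group means, shares and the members' places among all log2 fold changes include it. In bulk RNA, a lower transcript level in every cell and fewer cells that express the gene cannot be told apart.

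All members were among the most abundant transcripts of the parent, and each G14 library had less of them than any parent library. How many of all genes were separated in this way was not computed. At 30 °C alone 59.5% of all genes had no overlap between the strains, in either direction. At 37 °C alone 28.3% had every G14 library below every parent library. At 37 °C the group means of G14 were between 6.51-fold and 9.59-fold lower than those of the parent. PAS_chr3_0230 had 1559, 2686 and 2367 FPKM in G14_37, and 3485, 3837 and 2496 FPKM in G14_30. In the parent it had 22165, 22102 and 19128 FPKM at 37 °C and 8390.0, 8099 and 7179.6 FPKM at 30 °C. The G14 libraries at the 2 temperatures overlapped for this gene. Every parent library lay above every G14 library, and the parent's libraries at 37 °C lay above those at 30 °C.

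PAS_chr1-4_0130, the HSP90 gene, had 811, 2115 and 2745 FPKM in G14_37 and 3346, 3488 and 3454 FPKM in G14_30. Its parent libraries had 19192, 17714 and 15509.5 FPKM at 37 °C, against 9104, 8888 and 8108 FPKM at 30 °C. The 4 groups did not overlap. They stood in the order G14_37, G14_30, Parent_30 and Parent_37, low to high. How many of all genes had 4 separate groups was not computed. Pair by pair, 21.1% of all genes had G14_37 below G14_30 without overlap, and 41.4% had Parent_37 above Parent_30. Between the strains at 30 °C, 59.5% did not overlap, in either direction.

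PAS_chr4_0552 gave 217, 1215 and 1987 FPKM in G14_37 and 3340.0, 3036 and 3521 FPKM in G14_30. Its parent libraries gave 7485, 7095 and 7693 FPKM at 37 °C and 6223, 6275 and 5868 FPKM at 30 °C. Here too the 4 groups were separate and in the same order as for HSP90, but the step between the parent's temperatures was small. Replicate 1 of G14_37 held the lowest of the 12 values of each member, and for PAS_chr4_0552 it lay 5.59-fold below the next library.

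**Figure D1:**
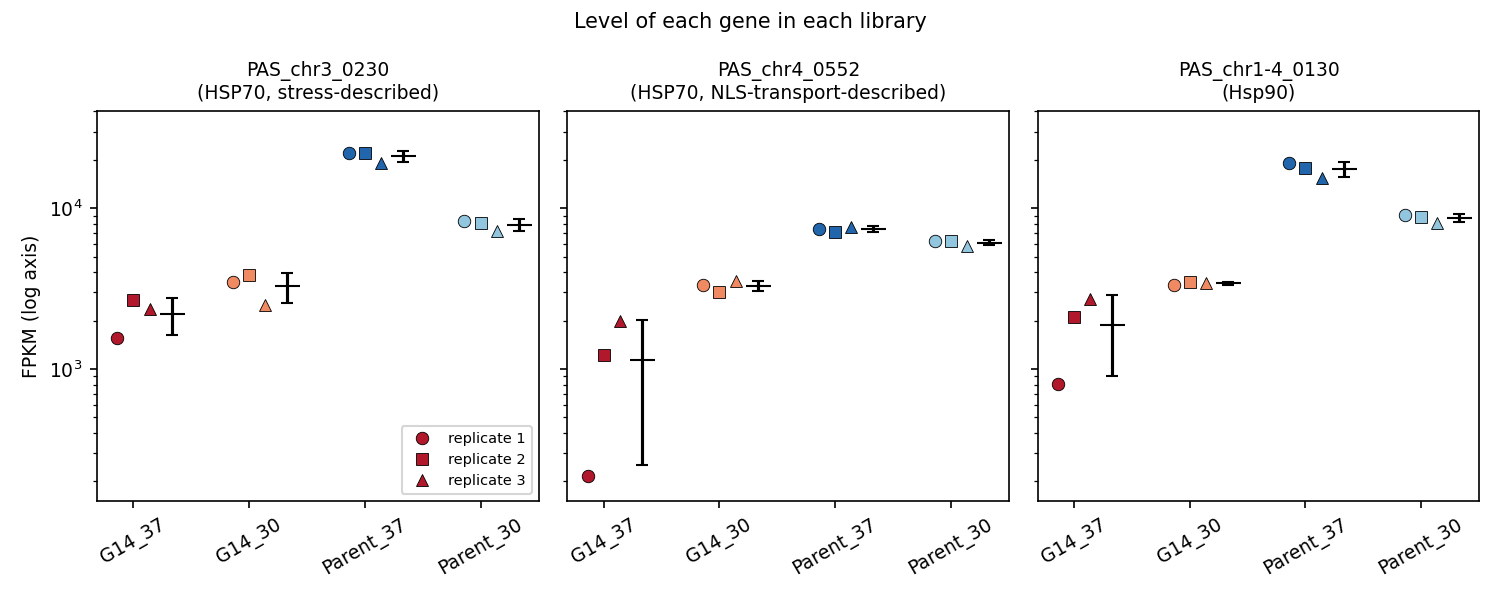
FPKM (log axis) of PAS_chr3_0230, PAS_chr4_0552 and PAS_chr1-4_0130 in each of the 12 libraries, by group, with 1 symbol per library and a horizontal mark with error bars for the group mean ± SD (n = 3). Every G14 library lies below every parent library, a separation whose share among all genes was not computed. The G14_37 points spread most, from 217 to 1987 FPKM for PAS_chr4_0552.

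Since FPKM is per length, the members could be ranked among all genes of a library. In Parent_37, PAS_chr3_0230 ranked between 1 and 2 of 5080 and PAS_chr1-4_0130 between 2 and 3, while PAS_chr4_0552 ranked between 16 and 19. By group mean, PAS_chr3_0230 was the most abundant transcript of Parent_37, followed by the hypothetical protein gene PAS_chr4_0883, PAS_chr1-4_0130 and the HSP90 co-chaperone gene PAS_chr1-4_0043. PAS_chr4_0552 stood between PAS_chr1-3_0102, a partner of HSP70 and HSP40, and the cyclophilin gene PAS_chr3_0567. In Parent_30 the ranks were 7 to 9 for PAS_chr3_0230, 6 to 7 for PAS_chr1-4_0130 and 11 to 12 for PAS_chr4_0552. There PAS_chr1-4_0130 was next to a glyceraldehyde-3-phosphate dehydrogenase gene, PAS_chr2-1_0437, and PAS_chr4_0552 next to a pyruvate decarboxylase gene, PAS_chr3_0188.

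In G14 the members stood further down the order. Their ranks ran from 29 to 64 in G14_37 and from 22 to 80 in G14_30 for PAS_chr3_0230, and from 21 to 196 and from 34 to 48 in these groups for PAS_chr1-4_0130. PAS_chr4_0552 ranked from 50 to 712 in G14_37, with rank 712 in replicate 1, and from 40 to 45 in G14_30.

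Added together, the members held 0.599% ± 0.270 (SD, n = 3) of all FPKM in G14_37 and 0.988% ± 0.056 in G14_30. In the parent they held 4.33% ± 0.37 at 37 °C and 1.96% ± 0.09 at 30 °C. The ranges of G14_37, at 0.311% to 0.846%, and of Parent_37, at 3.94% to 4.69%, lay far apart. Their share of all fragments, which is not divided by length, was higher, at 1.25%, 2.19%, 7.98% and 4.15% in G14_37, G14_30, Parent_37 and Parent_30. The order of the groups was the same by both measures.

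**Figure D2:**
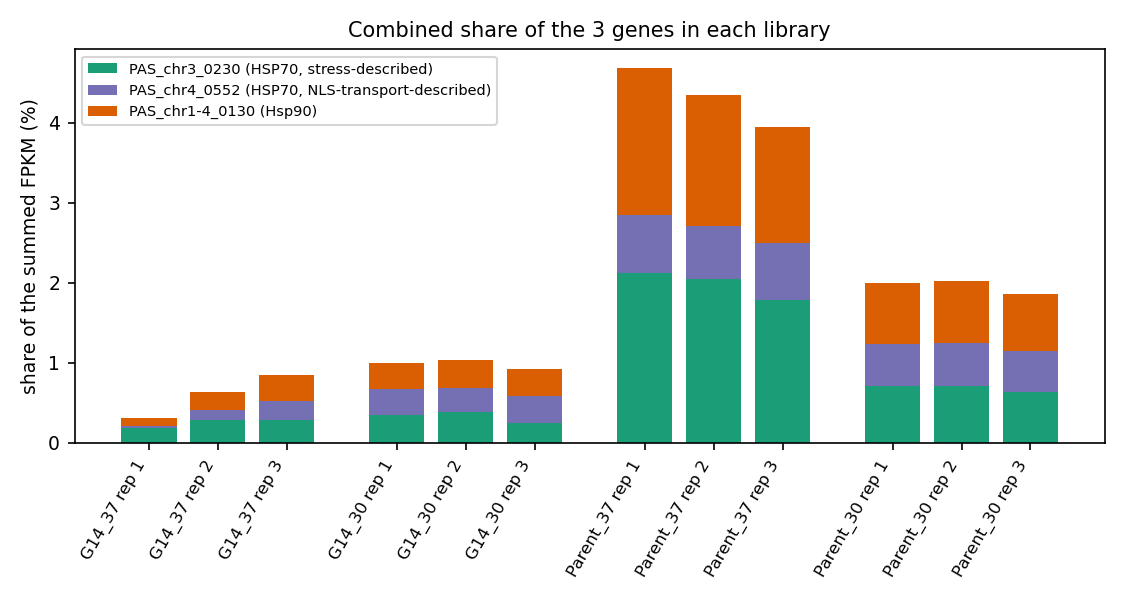
Share of each library's summed FPKM (percent) taken by the members, stacked by gene, for the 12 libraries by group. The combined share is 0.311% to 0.846% in G14_37 and 3.94% to 4.69% in Parent_37.

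The question of the temperature comparison was how each strain answers growth at 37 °C. In G14 all members had negative log2 fold changes, and 1 of the 3 passed the test. PAS_chr4_0552 fell to 1140 ± 887 FPKM in G14_37, against 3299 ± 245 FPKM in G14_30 (SD, n = 3 each), a log2 change of -2.03 (SE, the standard error, 0.60, adjusted p = 0.0327 from limma). Of all 5080 genes, 5 had a lower log2 fold change in this comparison. By the same test 13.2% of all genes fell. PAS_chr1-4_0130 averaged 1890.4 ± 986 FPKM in G14_37 and 3429 ± 74 FPKM in G14_30, and its log2 fold change of -1.03 (95% interval -1.83 to -0.24) missed the threshold (adjusted p = 0.0565). PAS_chr3_0230 averaged 2204 ± 581 FPKM in G14_37 and 3273 ± 695 FPKM in G14_30, with -0.58 (95% interval -1.11 to -0.06, adjusted p = 0.0926). Of the 3 members, 2 had every G14_37 library below every G14_30 library, which held for 21.1% of all genes.

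Replicate 1 of G14_37 carried a large part of these decreases. Without it the log2 fold change was -1.08 for PAS_chr4_0552 (adjusted p = 0.00524 from limma), -0.51 for PAS_chr1-4_0130 (adjusted p = 0.0375) and -0.35 for PAS_chr3_0230 (adjusted p = 0.196). Without replicate 3 it was -2.68 for PAS_chr4_0552 and -1.39 for PAS_chr1-4_0130 (adjusted p = 0.0112). The call on PAS_chr4_0552 was lost without any 1 of the G14_30 libraries, at an adjusted p of up to 0.0902, and in a fit of the G14 groups alone, at 0.152. All these values were negative.

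In the parent, PAS_chr3_0230 averaged 21131 ± 1735 FPKM at 37 °C and 7889.5 ± 632 FPKM at 30 °C (SD, n = 3 each), 2.68-fold higher with heat. On the log2 scale it rose by 1.42 (SE 0.24, adjusted p = 0.000435 from limma). PAS_chr1-4_0130 averaged 17472 ± 1853 FPKM at 37 °C and 8700.1 ± 524 FPKM at 30 °C, and its log2 value rose by 1.0 (SE 0.36, adjusted p = 0.0319 from limma). So 2 of the 3 members rose, while 32.9% of all genes rose by the same test. PAS_chr4_0552 averaged 7424 ± 304 FPKM at 37 °C and 6122 ± 222 FPKM at 30 °C, and its log2 fold change of 0.28 (95% interval -1.05 to 1.61) did not pass (adjusted p = 0.710). Its libraries at 37 °C were all above those at 30 °C, as held for all members and for 41.4% of all genes. PAS_chr1-4_0130 missed the threshold in limma without Parent_37 replicate 1 or 2 or any 1 of the Parent_30 libraries (adjusted p up to 0.0883). With limma voom on the recovered fragments its adjusted p was 0.0543. Without G14_37 replicate 1, a library outside this comparison, the same log2 fold change had an SE of 0.14 and an adjusted p of 8.47e-05 from limma. In a fit of the parent groups alone the adjusted p was 0.000115. A fit of these groups alone called PAS_chr4_0552 as well, at the same fold change (adjusted p = 0.0319).

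The difference in heat response, the log2 fold change in G14 minus that in the parent, was tested in the same model. It was -2.0 for PAS_chr3_0230 (SE 0.34, adjusted p = 0.00131 from limma) and -2.03 for PAS_chr1-4_0130 (SE 0.51, adjusted p = 0.0106). For PAS_chr4_0552 it was -2.30, but with a wider interval, from -4.19 to -0.42 (adjusted p = 0.0565). So the difference passed for 2 of the 3 members, and for 20.7% of all genes in this direction. Without G14_37 replicate 1 it was smaller and passed for all members, at -1.77, -1.51 and -1.36 for PAS_chr3_0230, PAS_chr1-4_0130 and PAS_chr4_0552, with adjusted p values of 0.000376, 0.000293 and 0.00156. It also passed for PAS_chr4_0552 without G14_37 replicate 2 or 3, at -2.6 and -2.95.

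The strains were also compared at each temperature. At 30 °C, PAS_chr3_0230 was 2.41-fold lower in G14_30 than in Parent_30 by group means, a log2 change of -1.29 (SE 0.24, adjusted p = 0.00226 from limma). PAS_chr1-4_0130 was 2.54-fold lower, with -1.34 (SE 0.36, adjusted p = 0.0174). PAS_chr4_0552 was 1.86-fold lower by group means, and its log2 fold change of -0.89 (95% interval -2.22 to 0.44) did not pass (adjusted p = 0.310). So 2 of the 3 members were called lower, beside 13.7% of all genes, and all 3 had no overlap with the parent, beside 59.5% of all genes in either direction. The model shares 1 spread over all groups, and G14_37 replicate 1, a library outside the comparison, entered it. Without that library the SE of PAS_chr4_0552 was 0.166 in place of 0.60, and the same log2 fold change had an adjusted p of 0.00177 from limma, and in a fit of the 30 °C groups alone one of 0.00034. The adjusted p of PAS_chr1-4_0130 was above 0.05 without G14_30 replicate 1 or Parent_30 replicate 1 or 2, at up to 0.0595. Without G14_37 replicate 1 it was 3.29e-05 from limma, and in a fit of the 30 °C groups alone 5.34e-05, at the same log2 fold change.

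At 37 °C the fold changes between the strains were larger than at 30 °C for each member. Log2 fold changes of G14_37 vs. Parent_37 were -3.29 for PAS_chr3_0230 (SE 0.24, adjusted p = 7.79e-07 from limma), -3.38 for PAS_chr1-4_0130 (SE 0.36, adjusted p = 1.68e-05) and -3.20 for PAS_chr4_0552 (SE 0.60, adjusted p = 0.000965). All 3 members were called lower, beside 28.1% of all genes. All 3 lay below the parent without overlap, beside 28.3% of all genes in that direction. This share is not comparable with the 59.5% at 30 °C, which counts either direction. Between 79 and 97 of the 5080 genes had a lower log2 fold change than the members. Without G14_37 replicate 1 the values were -3.06, -2.85 and -2.25 in the same order, and without G14_37 replicate 3 that of PAS_chr4_0552 was -3.85. All of them stayed past the threshold with any 1 of the 12 libraries left out.

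**Figure D3:**
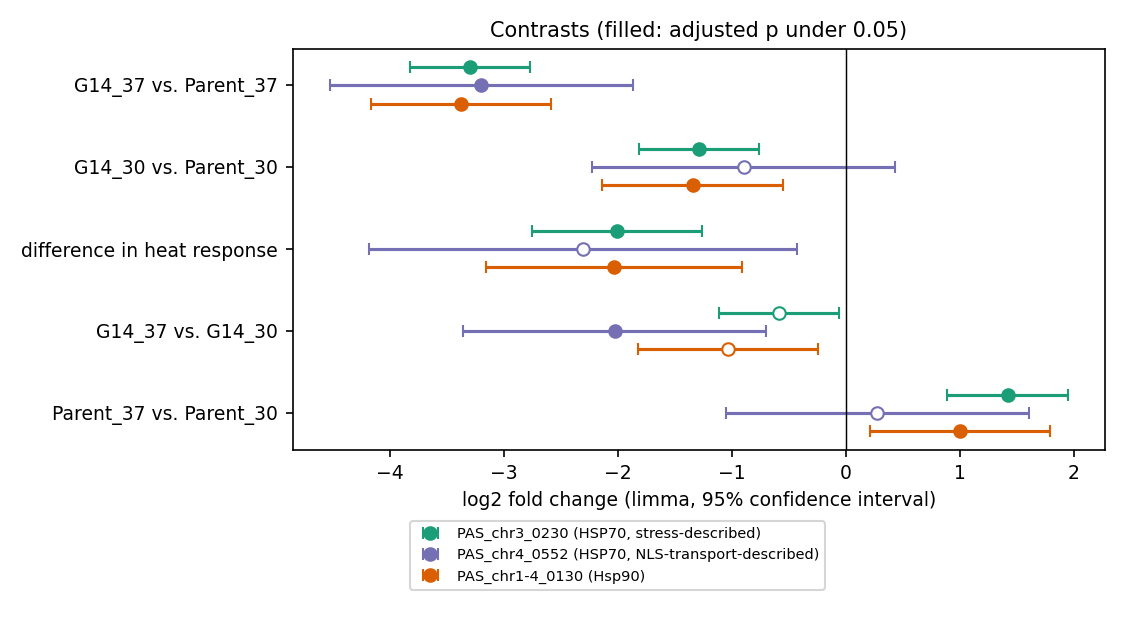
Log2 fold changes (with 95% intervals) of the members in the heat responses of G14 and the parent, their difference and the strain comparisons at each temperature, from all 12 libraries, filled where the adjusted p is under 0.05. The estimates of the parent's heat response lie above 0 for each member and all others below, with G14_37 vs. Parent_37 lowest at -3.20 to -3.38.

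The members did not keep a fixed proportion to each other. Between the HSP70 genes, the ratio of PAS_chr3_0230 to PAS_chr4_0552 was 7.17, 2.21 and 1.19 in G14_37 and 1.04, 1.26 and 0.709 in G14_30. These groups overlapped, and the value of 7.17 came from G14_37 replicate 1. In the parent it was 2.49 to 3.12 in Parent_37 and 1.22 to 1.35 in Parent_30, with no overlap, so the stress-described HSP70 gene gained on the other with heat. The ratio of PAS_chr3_0230 to the HSP90 gene PAS_chr1-4_0130 moved less, with 1.92, 1.27 and 0.862 in G14_37 and 1.04, 1.10 and 0.723 in G14_30. In the parent that ratio was 1.15 to 1.25 at 37 °C, against 0.885 to 0.922 at 30 °C. The ratio of PAS_chr4_0552 to PAS_chr1-4_0130 was 0.268 to 0.724 in G14_37 and 0.870 to 1.02 in G14_30. In the parent it was 0.390 to 0.496 at 37 °C, against 0.683 to 0.724 at 30 °C, lower with heat in both strains without overlap. These ratios share their libraries and are given as a description, with no test.

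**Figure D4:**
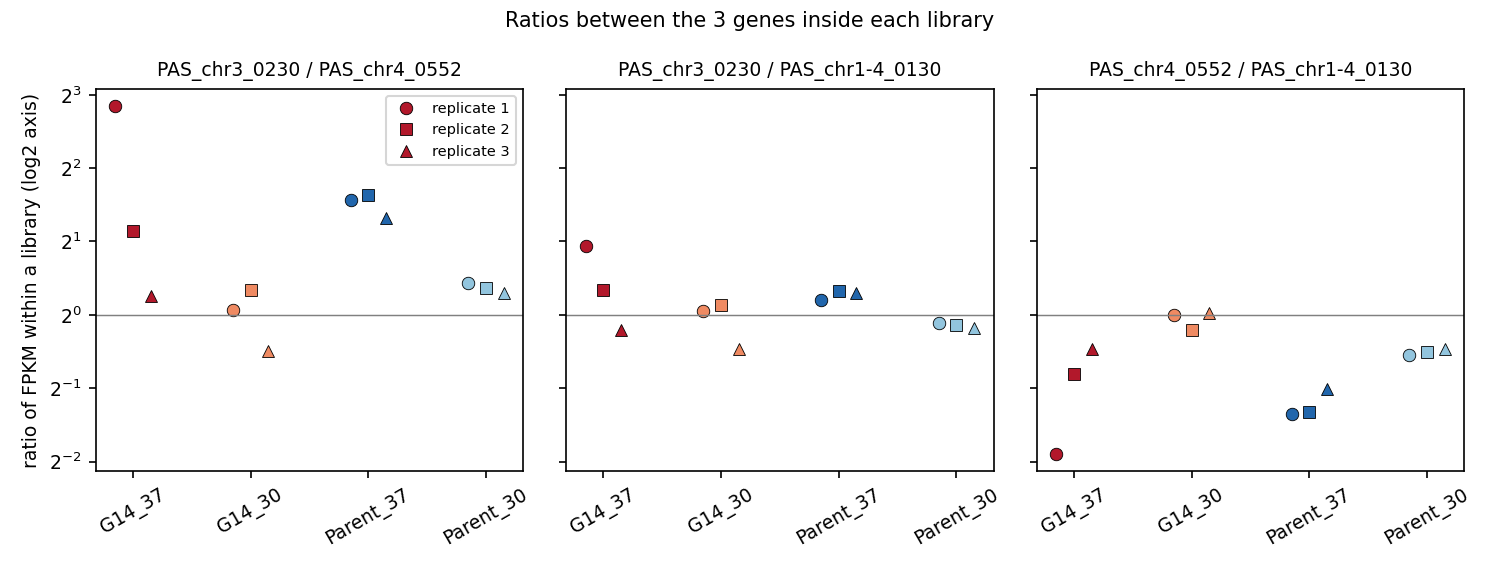
Ratios of FPKM between pairs of members (log axis) in each of the 12 libraries, by group. PAS_chr3_0230 over PAS_chr4_0552 spreads from 1.19 to 7.17 in G14_37, and is 2.49 to 3.12 in Parent_37 against 1.22 to 1.35 in Parent_30.

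Across the 12 libraries, in log2(FPKM + 1), PAS_chr3_0230 and PAS_chr1-4_0130 had a Pearson's r of 0.965 with each other. For PAS_chr4_0552 it was 0.920 with PAS_chr1-4_0130 and 0.798 with PAS_chr3_0230. The 12 points share 4 groups, so these values describe the group pattern and carry no p. The genes most like PAS_chr1-4_0130 were its co-chaperone gene PAS_chr1-4_0043 (r = 0.998), the cyclophilin gene PAS_chr3_0567 (0.996) and PAS_chr2-2_0066, a J-domain chaperone gene (0.994). Most like PAS_chr4_0552 were PAS_chr1-4_0072, described as an activator of the HSP90 ATPase (0.984), PAS_chr1-4_0113, a glutamine-rich protein gene of unknown function (0.976), and the cyclophilin gene PAS_chr1-3_0264 (0.968). Cyclophilins are peptidyl-prolyl isomerases, which help proteins to fold. Without G14_37 replicate 1, PAS_chr1-4_0043, PAS_chr3_0567 and PAS_chr2-2_0066 took places 2, 8 and 10 for PAS_chr1-4_0130. For PAS_chr4_0552, PAS_chr1-4_0072, PAS_chr1-4_0113 and PAS_chr1-3_0264 then took places 11, 1 and 42, so this order rests in part on that library. Those nearest to PAS_chr3_0230 were 3 genes of hypothetical proteins, PAS_chr1-4_0398 (0.993), PAS_chr1-1_0149 (0.992) and PAS_chr4_0912 (0.992), which took places 3, 7 and 1 without that library. PAS_chr1-4_0398 had a mean of 48.2 FPKM in G14_37, 69.0 FPKM in G14_30, 943 FPKM in Parent_37 and 253 FPKM in Parent_30.

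The partner genes of these chaperones were taken as the rows whose description names HSP70, HSP90 or HSP40, their baker's yeast forms (such as Ssa1, Hsp82 and Ydj1), DnaJ or a J-domain or J-protein, 25 in all. Of these, 8 name mitochondria, the endoplasmic reticulum or an HSP70 of these (such as Ssc1), and the other 17 do not. In G14, 1 of the 25 rose with heat and 10 fell, with a median log2 fold change of -0.34, against 0.00 over all genes, of which 12.1% rose and 13.2% fell. In the parent, 14 rose and 6 fell, with a median of 0.45 against 0.04, where 32.9% of all genes rose and 27.0% fell. In the difference in heat response, 1 was higher and 11 were lower, with a median of -0.33 against 0.00, where 14.6% of all genes were higher and 20.7% lower. Of the 17 cytosolic or unplaced partners, 1 rose and 8 fell in G14, while in the parent 11 rose and 2 fell, namely PAS_chr1-1_0036 (-1.46) and the nuclear J-protein gene PAS_chr4_0242 (-0.50). Of the 8 organelle partners, 0 rose and 2 fell in G14, PAS_chr2-2_0015 (-0.81) and PAS_chr1-3_0174 (-0.87), both J-proteins of the endoplasmic reticulum. In the parent 3 of these 8 rose, PAS_chr2-2_0323, PAS_chr2-2_0015 and PAS_chr1-1_0086, and 4 fell, by 0.22 to 0.71. Members of these small counts that are not among the most abundant partners were named after their values were seen. Without G14_37 replicate 1, 1 of the 25 rose and 11 fell in G14, beside 11.56% and 12.01% of all genes. In the parent 15 rose and 6 fell in that fit, beside 37.97% and 31.18% of all genes. In the difference 2 were higher and 12 lower in that fit, beside 20.24% and 25.67% of all genes. The count of higher ones was 2 in G14 without G14_37 replicate 2, and 0 in the difference without G14_30 replicate 1 or 2, Parent_37 replicate 2 or Parent_30 replicate 3. A fit of the G14 groups alone called 1 of the 25 lower, PAS_chr2-1_0042, and scaling to equal sums (TPM) called 4 higher and 9 lower, with 29.3% of all genes higher and 5.18% lower.

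Between the strains, G14_30 vs. Parent_30 had 14 of the 25 partners lower and 1 higher, with a median of -0.48 against -0.03 over all genes, of which 14.9% were higher and 13.7% lower. After TPM scaling 9 were lower and 2 higher, beside 7.30% and 24.7% of all genes, and the count of lower ones was also 9 without G14_30 replicate 2 or any 1 of the Parent_30 libraries. G14_37 vs. Parent_37 had 17 lower and 3 higher, with a median of -0.59 against 0.05, where 29.4% of all genes were higher and 28.1% lower. The count of higher ones was 5 with TPM scaling, beside 45.8% of all genes, and 1 without Parent_37 replicate 2 or 3 or in a fit of these groups alone. Few partners went the other way, and those named in the next sentences were chosen after their values were seen. The partner that rose in G14 was PAS_chr4_0051, a probable HSP40 gene, at 1.89 in G14 and 1.60 in the parent. The partner with a higher response in G14 was PAS_chr1-1_0036, an HSP70 gene of the ribosome-associated complex, with log2 fold changes of -0.73 in G14 and -1.46 in the parent and a difference of 0.73. At 30 °C the partner higher in G14 was PAS_chr4_0353, a J-protein gene of mitochondrial iron-sulfur cluster assembly, at 0.69. At 37 °C it was higher by 0.36, beside PAS_chr1-1_0036 by 0.53 and PAS_chr2-2_0413, a co-chaperone gene of the mitochondrial import motor, by 0.34.

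The partners with values in this and the next paragraphs were picked by their mean FPKM over all 12 libraries. That choice favours genes with high levels in Parent_37, so they do not stand for the whole partner list. PAS_chr1-4_0043, whose product binds and regulates HSP90, was the most abundant partner, with 2115 ± 1171 FPKM in G14_37 and 3584 ± 215 FPKM in G14_30. The parent had 15866 ± 1228 FPKM at 37 °C and 7936 ± 467 FPKM at 30 °C (SD, n = 3 each). It thus lay close to the HSP90 gene in all 4 groups. Its heat response was -0.94 in G14 (adjusted p = 0.0777 from limma) and 1.0 in the parent (adjusted p = 0.0345), with a difference of -1.94 (adjusted p = 0.0141). The value in G14 was -0.42 without G14_37 replicate 1, and it passed at -1.34 without replicate 3 (adjusted p = 0.0103 from limma). The parent's call was lost without any 1 of the 6 parent libraries, at up to 0.0891, and with voom (0.0754). Over all fits with 1 library left out, the parent's value ran from 0.95 to 1.06. Its adjusted p from limma ran from 0.000195 to 0.0891.

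The other HSP90 co-chaperones varied. PAS_chr3_0170, described as an activator of the HSP90 ATPase, averaged 686 FPKM in G14_37, 1211 FPKM in G14_30, 9887 FPKM in Parent_37 and 4466 FPKM in Parent_30. It fell by 0.86 in G14 and rose by 1.15 in the parent on the log2 scale. PAS_chr1-4_0072 has the same description, but its means lay between 402 FPKM in G14_37 and 1063 FPKM in Parent_37, and neither heat response passed, at -0.74 in G14 and 0.22 in the parent. That in G14 was -0.33 without G14_37 replicate 1, and without replicate 3 it passed at -1.08, with a difference of -1.31 that passed too. PAS_chr2-1_0518, which joins HSP90 with cytosolic HSP70, fell by 0.97 in G14 and rose by 1.11 in the parent. The fall in G14 had an adjusted p of 0.018 from limma, above 0.05 without G14_30 replicate 2 or 3. Without G14_37 replicate 1 it was -0.63, past the threshold. PAS_chr2-1_0323, described as an essential HSP90 co-chaperone, had a positive value in G14 too, 0.56 (adjusted p = 0.0900 from limma), with 112 ± 36 FPKM in G14_37 and 74.1 ± 9.3 FPKM in G14_30. That value was 0.31 without G14_37 replicate 1, and it passed at 0.72 without replicate 2 (adjusted p = 0.0475) and at 0.77 with TPM scaling (adjusted p = 0.0282). In the parent it had the largest rise of the named partners, 2.58, with 2128 ± 568 FPKM in Parent_37 and 347 ± 22 FPKM in Parent_30.

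Among the HSP70 partners, the nucleotide exchange factor gene PAS_chr2-1_0042 had the lowest log2 fold change in G14_37 vs. Parent_37 and the most negative difference in heat response of those named. It had a mean of 252 ± 36 FPKM in G14_37 and 742 ± 99 FPKM in G14_30, against 8636 ± 816 FPKM in Parent_37 and 3222 ± 233 FPKM in Parent_30 (SD, n = 3 each). Its difference in heat response was -2.98, and in G14_37 vs. Parent_37 its log2 fold change was -5.10. PAS_chr2-2_0151, a type II HSP40 gene, fell by 0.76 in G14 and rose by 1.06 in the parent. PAS_chr2-2_0066, a J-domain regulator of both chaperones, fell by 1.25 in G14 and rose by 0.99 in the parent. PAS_chr1-3_0102, with an AAA ATPase domain, cooperates with HSP40 and HSP70 by its description, and its Parent_37 mean was 7823 FPKM. It fell by 0.69 in G14 (adjusted p = 0.0453 from limma) and rose by 1.08 in the parent. The fall passed with all libraries and without G14_37 replicate 2 or G14_30 replicate 3, and missed the threshold without any 1 of the other 10 libraries, at up to 0.146.

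The organelle partners PAS_chr2-2_0323, which stimulates the mitochondrial HSP70, and PAS_chr2-2_0015, a J-domain protein gene of the endoplasmic reticulum, were measured in both strains. In G14, PAS_chr2-2_0323 had -0.27 (adjusted p = 0.257 from limma, but -0.48 and 0.0156 without G14_37 replicate 3) and PAS_chr2-2_0015 fell by 0.81. In the parent they rose by 1.61 and 0.99. PAS_chr3_0691, a chaperone and protease gene similar to bacterial Hsp31 and named under the other heat shock genes, had positive values in both strains. It rose by 0.54 in G14 (adjusted p = 0.0139, but 0.104 in a fit of the G14 groups alone), and its 0.25 in the parent did not pass (adjusted p = 0.107). The parent's value passed without G14_37 replicate 1 (adjusted p = 0.0139), in a fit of the parent groups alone (0.0287) and at 0.37 with TPM scaling (0.0145).

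**Figure D5:**
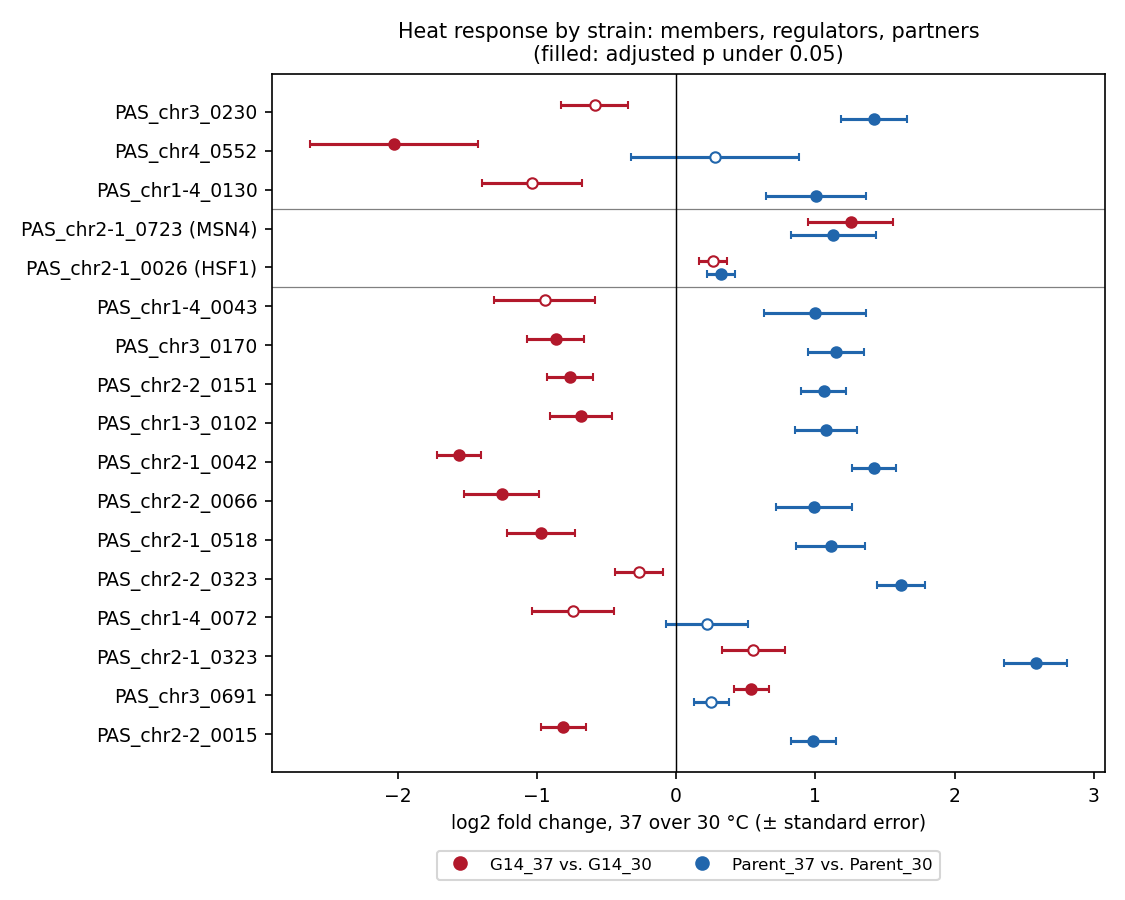
Log2 fold changes (37 over 30 °C, with standard errors) of the members, of the regulators MSN4 and HSF1 and of the 12 most abundant partners or other heat shock genes, in G14 and in the parent, filled where the adjusted p is under 0.05. The estimates of the members, at -0.58 to -2.03 in G14 and 0.28 to 1.42 in the parent, have opposite signs by strain. No member passes in both strains. Both regulators lie above 0 in both strains.

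The transcripts of the regulators had another pattern than the members. HSF1 (PAS_chr2-1_0026), the heat shock transcription factor gene, had means of 83.2 ± 4.3 FPKM in G14_37 and 69.1 ± 4.1 FPKM in G14_30, against 88.1 ± 9.0 FPKM in Parent_37 and 70.2 ± 5.8 FPKM in Parent_30 (SD, n = 3 each). Its heat response was 0.26 in G14 (adjusted p = 0.0740 from limma) and 0.32 in the parent (adjusted p = 0.0172, above 0.05 without Parent_37 replicate 1 or 3 or Parent_30 replicate 1). With TPM scaling, that in G14 was 0.48 and passed (adjusted p = 0.0148). The difference between the strains was -0.06 (adjusted p = 0.783).

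MSN4 (PAS_chr2-1_0723), a general stress activator gene, had means of 268 ± 152 FPKM in G14_37 and 102 ± 15 FPKM in G14_30, against 432 ± 55 FPKM in Parent_37 and 197 ± 23 FPKM in Parent_30 (SD, n = 3 each). It rose with heat by 1.25 in G14 (adjusted p = 0.0153 from limma, 0.0609 without G14_30 replicate 3 and 0.104 in a fit of the G14 groups alone) and by 1.13 in the parent (adjusted p = 0.00797). The difference was 0.13 (adjusted p = 0.846). Without G14_37 replicate 1 the rise in G14 was 0.82, the difference -0.30 and the value between the strains at 37 °C -1.26. Between the strains it was lower in G14, at -0.95 at 30 °C (adjusted p = 0.0374) and -0.83 at 37 °C (adjusted p = 0.0371). Neither call held in each fit with a library left out, with adjusted p values of up to 0.116 at 30 °C and 0.136 at 37 °C, where leaving out G14_37 replicate 3 gave -0.51. With TPM scaling they were 0.0931 and 0.157. RNA levels do not show the activity of either factor.

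The table has 6 further rows with the HSP70 domain, a list made after the files had been opened and given as values. PAS_chr2-1_0140, an HSP70 gene of the endoplasmic reticulum, resembled the members. Its means were 596 FPKM in G14_37 and 1346 FPKM in G14_30, against 9019 FPKM in Parent_37 and 4310.1 FPKM in Parent_30. The mitochondrial PAS_chr3_0365 had 1119 FPKM in G14_37 and 1689 FPKM in G14_30, against 6520.1 FPKM in Parent_37 and 4021 FPKM in Parent_30. PAS_chr3_0731, of the HSP70 that sits on ribosomes and assists new proteins, went the other way in the parent. It averaged 806 ± 81 FPKM in G14_37 and 1468 ± 196 FPKM in G14_30, against 315 ± 83 FPKM in Parent_37 and 1451 ± 42 FPKM in Parent_30 (SD, n = 3 each). PAS_chr1-1_0036, of the ribosome-associated complex, had 182 FPKM in G14_37 and 306 FPKM in G14_30, against 126 FPKM in Parent_37 and 348 FPKM in Parent_30. The remaining 2 rows had means under 200 FPKM in every group, and neither passed the test of the parent's heat response. PAS_chr1-3_0063, also of the endoplasmic reticulum, fell by 1.11 in G14, and its -0.04 in the parent did not pass (adjusted p = 0.889 from limma). The mitochondrial PAS_chr3_0402 rose by 0.69 in G14 (adjusted p = 0.0453 from limma). Its G14_37 libraries had 70.9, 35.4 and 36.8 FPKM, highest in replicate 1, and no value without that library is given for it. Its 0.34 in the parent did not pass (adjusted p = 0.219). Every Parent_37 library lay above every Parent_30 library for this gene, as held for 41.4% of all genes.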

How the data were processed

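RNA from 12 yeast cultures was sequenced as paired-end libraries prepared with the NEBNext Ultra kit. The authors deposited 1 table of FPKM values with gene positions, coding lengths and descriptions, made from cleaned reads mapped to the genome and gene models of PICHIAGENOME. The submitters' processing notes name CASAVA, HISAT2 2.0.5 and featureCounts 1.5.0-p3. The deposited FPKM include a scaling between libraries, since median-of-ratios factors computed on them were 0.9986 in each library. In all libraries 100% of the values times length were whole fragments (tolerance 0.05). The table holds 5040 annotated genes and 40 transcripts outside the annotation. The second deposited file lists positions of such transcripts and no measurements, and was not used.

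One linear model with 4 group means was fitted to log2(FPKM + 1) in R 4.3.3 with the limma package (3.58.1, trended prior, 8 residual degrees of freedom). Fold changes are on that scale. P values were adjusted by Benjamini and Hochberg over the 5080 rows, 0.05 was the threshold, and a minimum mean of 1 FPKM removed 0 rows. The study itself ran a count model, and the test used here follows the unit of the deposited values. With 3 libraries against 3, an exact permutation p cannot go below 0.1. The fit was tested on simulated data with 200 changed genes. Levels, ranks and ratios came from Python 3.11.15 (pandas 2.3.3, numpy 2.4.6, scipy 1.17.1, figures by matplotlib 3.10.9).

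The members, the partner and regulator lists and the tests were chosen with earlier results of these data known. Values were given for the members, the regulators HSF1 and MSN4 of the study's gene list, the 12 partners or other heat shock genes with the highest mean FPKM, the 3 genes most correlated with each member, and rank neighbours by name. The mean FPKM was taken over all 12 libraries, so genes could enter through Parent_37. PAS_chr2-1_0323, for example, averaged 2128 FPKM there and 112 FPKM in G14_37. The counts over all 25 partners do not depend on this choice. Some HSP names in the study's supplement stand at genes with another description, so the deposited descriptions were followed. Alternatives were TPM and median-of-ratios scaling, no filter or one at 10 FPKM, a pseudocount of 0.1, limma voom on the recovered fragments, separate fits of the compared groups, a block for the replicate number, and leaving out each library.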

Additional observations from a re-analysis of the deposited data

Results flagged for a closer look

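The heat responses of G14 and the parent are the log2 fold changes at 37 over 30 °C. They differed for the genes below by the test of the difference itself in limma (adjusted p under 0.05). By the same test 20.7% of all genes were lower and 14.6% higher. The genes come from the members, the regulators and those picked by mean FPKM over all 12 libraries, a choice that favours genes high in Parent_37. Among the members, the difference was -2.0 for PAS_chr3_0230 and -2.03 for PAS_chr1-4_0130. The HSP90 co-chaperone genes PAS_chr1-4_0043, PAS_chr3_0170, PAS_chr2-1_0518 and PAS_chr2-1_0323 had differences of -1.94, -2.01, -2.08 and -2.03. For the HSP70 partners it was -1.82 for PAS_chr2-2_0151, -1.76 for PAS_chr1-3_0102, -2.98 for PAS_chr2-1_0042 and -2.24 for PAS_chr2-2_0066. For the organelle partners it was -1.88 for PAS_chr2-2_0323 and -1.80 for PAS_chr2-2_0015. No cause of these differences was tested. PAS_chr4_0552 had the more negative value of -2.30 among the members and is not in this list, since its spread in G14_37 left the adjusted p at 0.0565. HSF1 (-0.06), MSN4 (0.13), PAS_chr1-4_0072 (-0.97) and PAS_chr3_0691 (0.29) did not pass either.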

How the results depend on the processing

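No log2 fold change of a member changed its sign under any alternative. With 1 library left out, the member results kept their side of the threshold in 163 fits, gained it in 6 and lost it in 11, and under the other settings in 113, 2 and 2. The ranges of the log2 fold change with 1 library left out were -2.68 to -1.08 for PAS_chr4_0552 and -1.39 to -0.51 for PAS_chr1-4_0130 in the heat response of G14, 0.93 to 1.09 for PAS_chr1-4_0130 in that of the parent, and -2.95 to -1.36 for PAS_chr4_0552 in the difference. In G14_30 vs. Parent_30 they were -0.94 to -0.84 for PAS_chr4_0552 and -1.39 to -1.31 for PAS_chr1-4_0130. Partner counts ranged from 1 to 2 higher in G14 with heat, 0 to 2 higher in the difference, 9 to 16 lower in G14_30 vs. Parent_30, and 1 to 4 higher in G14_37 vs. Parent_37.

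A fit of the compared groups alone gave PAS_chr4_0552 -2.03 in the heat response of G14 (adjusted p = 0.152), 0.28 in that of the parent (0.0319) and -0.89 in G14_30 vs. Parent_30 (0.00034), and called 1 partner lower in G14 with heat and 1 higher in G14_37 vs. Parent_37. Limma voom on recovered fragments gave PAS_chr1-4_0130 1.0 in the parent's heat response (adjusted p = 0.0543). TPM scaling called 4 partners higher in G14 with heat, 2 higher and 9 lower in G14_30 vs. Parent_30, and 5 higher in G14_37 vs. Parent_37. It placed the median of all genes at 0.22 for the heat response of G14, 0.16 for that of the parent, 0.10 for the difference, 0.15 for G14_30 vs. Parent_30 and 0.34 for G14_37 vs. Parent_37, where the deposited scaling gave -0.03 to 0.05. Median-of-ratios scaling repeats the deposited one.

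Over all genes, 616 rose and 672 fell in G14 with heat, against 1486 and 263 after TPM scaling and 49 and 28 in the fit of the compared groups alone, and 277 to 931 rose and 276 to 917 fell with 1 library left out. In G14_30 vs. Parent_30, 757 were higher and 697 lower, against 1255 and 371 with TPM and 1182 and 1236 in the fit of the compared groups alone, and 445 to 1048 were lower with 1 library left out. In G14_37 vs. Parent_37, 1495 were higher, against 2328 with TPM.

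Samples with the same replicate number did not deviate together in every pair, with correlations of their deviations from -0.22 to 0.67. Not every sample correlated best with its own number. The highest values were 0.61 and 0.67, for replicates 1 and 3 of the 30 °C groups. Replicates 2 and 3 of the G14 groups had 0.45 and 0.41, and the other same-number pairs at most 0.172. Whether such samples share more than a number was not tested. With the replicate number as a block, no call on a member changed, and 688 genes rose and 785 fell in G14 with heat; the log2 fold change of PAS_chr3_0230 in the difference in heat response was again -2.0.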
